A study of Mus musculus with 2 samples.

Results

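The genes described here encode 7 subunits of the GABA-A receptor: Gabra2, Gabra3, Gabra4, Gabra5, Gabrb1, Gabrb2 and Gabrg1. They were taken by symbol from a table of 45578 genes, and all 7 were found. Each had a mean count of at least 10 footprints, so none was lost to the filter on low counts. The values come from ribosome profiling of polysomes from mouse brain at postnatal day 5, in 1 group of 2 biological replicates. The mice were called controls. They carried Smn+/- and SMN2tg/0, that is, 1 intact copy of mouse Smn with a human SMN2 transgene, on a congenic FVB background, and neither sample was free of these alleles. In ribosome profiling, nuclease leaves the short mRNA stretches that ribosomes cover, here of 25 to 35 nucleotides, and each such footprint is counted on its transcript.

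The GABA-A receptor is a chloride channel made of 5 subunits around a pore and opened by GABA, the main inhibitory transmitter of the adult brain. Most receptors combine alpha and beta subunits with a gamma or delta subunit; GABA binds between alpha and beta, and benzodiazepines bind between alpha and gamma. The alpha subunit sets much of the receptor's location and pharmacology. In rodents alpha2, alpha3 and alpha5 are known as the abundant alpha subunits of the embryonic and newborn brain. In immature neurons a higher internal chloride level lets GABA depolarise the cell.

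Replicate 1 had 1866831 footprints in all and replicate 2 had 5261878, so replicate 2 was 2.82 times as deep and its values carry the smaller counting error. Levels of different genes were compared as footprint density, which is the CPM value of the gene (its count scaled to the library total) per kilobase of coding sequence, using the longest coding sequence of the gene. Intervals are exact 95% intervals. Like the floor of 3 counts used for a count of 0, they cover counting error only and leave out variation between replicates. PCR copies were not told apart, so the intervals can be too narrow even for counting error. The SD is over 2 replicates throughout. Markers of the tissue were present in both libraries: the 6 neuronal markers summed to 4933 and 3880 CPM in replicates 1 and 2, and 4 astrocyte markers summed to 1018 and 1032 CPM. The liver genes Alb and Apoa2 had no footprint in either library. Of 3 skeletal muscle genes, Ckm had 3 and 4 footprints and Myh8 2 and 30, but Acta1, the muscle actin gene, had 140 and 264. Whole brain was used, so fewer cells of a type and less RNA per cell cannot be told apart.

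Gabra2 had the highest mean density of the 7 genes when all transcripts were summed and divided by coding length; it ranked 5 with protein-coding transcripts alone, where Gabrb2 ranked 1. It encodes alpha2, found in forebrain and at the axon initial segment of principal cells. Its counts were 278 in replicate 1 and 1071 in replicate 2, which gave densities of 109.8 (interval 97.3 to 124) and 150.1 (141 to 159). The mean was 130.0 ± 28.5 (SD, n = 2), at percentile 88.2 of the 13317 coding genes whose mean count reached 10, whose median density was 23.5. Replicate 2 was the higher of the pair, and the intervals did not overlap.

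Gabra3 was the next alpha subunit in the order. Alpha3 is X-linked and is known from early cortex, monoaminergic nuclei and the reticular thalamus. With 218 and 722 footprints, it had densities of 72.9 (63.5 to 83.2) and 85.6 (79.5 to 92.1), a mean of 79.3 ± 9.02. Its replicates were closer to each other than those of Gabra2, and their intervals overlapped.

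Gabra5 stood lower. Alpha5 is best known from hippocampal pyramidal cells, where it lies largely outside synapses. Its 102 and 319 footprints, all on 1 annotated transcript, gave densities of 39.2 (32.0 to 47.6) and 43.6 (38.9 to 48.6) and a mean of 41.4 ± 3.04. Gabra4 was the lowest of the 7. Alpha4 pairs with delta in receptors of thalamus and dentate gyrus that carry tonic current. With 45 and 209 footprints its densities were 13.9 (10.1 to 18.6) and 22.9 (19.9 to 26.2), a mean of 18.4 ± 6.36 and percentile 43.2. On library totals replicate 2 was again the higher, without overlap of the intervals. With the scaling of the replicate test described below the densities were 14.5 and 21.9, and Gabra4 was not called.

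The beta subunits complete the GABA binding site, and Gabrb2 was the higher of both beta genes described. Beta2 is a beta subunit found widely in the adult brain. Its counts of 342 and 969 corresponded to densities of 119 (107 to 132) and 119.7 (112 to 127), with a mean of 119 ± 0.440. Gabrb1 had 123 and 331 footprints. Its densities were 46.2 (38.4 to 55.2) and 44.1 (39.5 to 49.2), a mean of 45.2 ± 1.48. Within a library, Gabrb2 exceeded Gabrb1 by 2.57 times in replicate 1 (2.09 to 3.19) and by 2.71 times in replicate 2 (2.39 to 3.08). On the means this ratio was 2.64, against 1.98 with protein-coding transcripts and 1.81 with the highest transcript. It was 25.5 per full length of the transcript with the longest coding sequence. That length was 1539 nucleotides for Gabrb2, with no annotated untranslated region, and 13737 for Gabrb1.

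Gabrg1 encodes gamma1, a subunit of restricted distribution that has also been found in glia. It had 104 footprints in replicate 1 and 412 in replicate 2. The densities were 39.8 (32.6 to 48.3) and 56.0 (50.7 to 61.7), and the mean was 47.9 ± 11.4. On library totals replicate 2 was higher, and the intervals did not overlap. With the scaling of the replicate test described below the densities were 41.6 and 53.6, and Gabrg1 was not called.

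**Figure D1:**
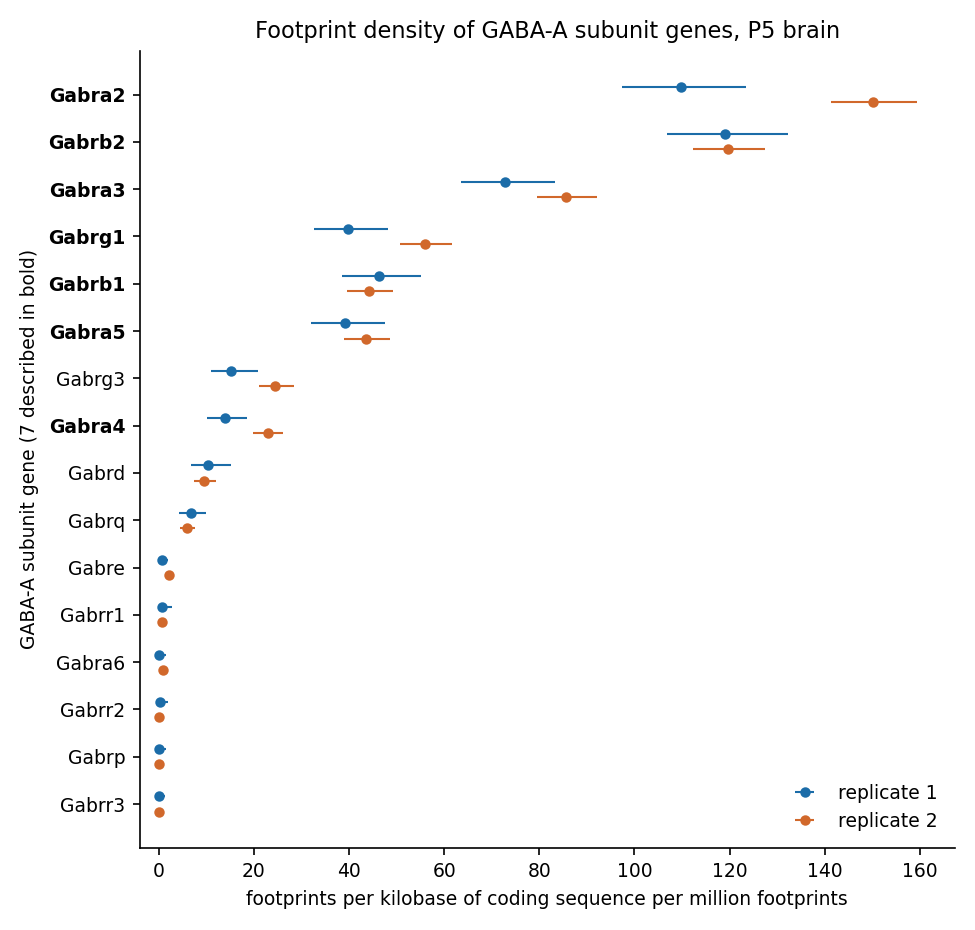
Footprint density (CPM per kilobase of coding sequence) of 16 GABA-A subunit genes, ordered by mean; points are the replicates and bars exact 95% Poisson intervals, with the 7 genes described here in bold. Gabra2 and Gabrb2 lie between 109.8 and 150.1, Gabra3 at 72.9 and 85.6, a group of 3 genes between 39.2 and 56.0, and Gabra4 at 13.9 and 22.9.

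The order of the 7 by mean density was Gabra2, Gabrb2, Gabra3, Gabrg1, Gabrb1, Gabra5 and Gabra4. Gabra2 and Gabrb2 did not differ beyond the spread of the replicates: Gabrb2 was the higher in replicate 1 and Gabra2 in replicate 2. Gabrg1 and Gabrb1 likewise changed places between the libraries. Gabrb1 and Gabra5 kept their order, but the interval of their ratio included 1 in both libraries (0.899 to 1.55 in replicate 1 and 0.866 to 1.19 in replicate 2). The steps from Gabrb2 to Gabra3, from Gabra3 to Gabrg1 and from Gabra5 to Gabra4 were larger than the replicate spread, at 1.51, 1.65 and 2.25 times on the means. This order held for summed transcripts and coding length. Gabrb2 was the highest of the 7 and above Gabra2 in both libraries with protein-coding transcripts (means 89.4 and 35.8), with the highest transcript (55.8 and 35.8) and per full transcript length (119 and 30.1), and Gabra2 then ranked 5, 4 and 3. Per full length the lowest gene was Gabrb1, at 4.69, and not Gabra4, at 13.3. The full lengths used were 1539 nucleotides for Gabrb2, annotated with no untranslated region, and 1790 for Gabra3. They were 5852 for Gabra2 and 13737 for Gabrb1, mostly untranslated, so ranks per full length depend on the annotated untranslated regions.

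The 9 other subunit genes reported here were all lower than Gabra5. Gabrg3, which encodes another gamma subunit, had a density of 19.9 ± 6.53 and overlapped the range of Gabra4. Gabrg1 had 2.61 times (1.80 to 3.86) the density of Gabrg3 in replicate 1 and 2.29 times (1.91 to 2.74) in replicate 2. Gabrd, the partner of alpha4, had a density of 9.94 ± 0.526, and its ratio to Gabra4 lay within counting error in replicate 1 but not in replicate 2. Gabra6, the subunit of mature cerebellar granule cells, had no footprint in replicate 1 and 7 in replicate 2. In replicate 1 its floor of 3 counts was a density of 1.18, and its exact interval reached 1.45. Gabrp and Gabrr3 had no footprint in either library.

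The alpha subunits can be compared with each other within each library. Gabra2 density was 1.51 times that of Gabra3 in replicate 1 (1.26 to 1.81) and 1.75 times in replicate 2 (1.59 to 1.93). It was 2.80 times (2.22 to 3.55) and 3.45 times (3.04 to 3.92) that of Gabra5. Gabra3 density was in turn 1.86 times (1.46 to 2.37) and 1.97 times (1.72 to 2.25) that of Gabra5. The order of alpha2, alpha3 and alpha5 was therefore the same in both libraries, by more than counting error. Gabra4, an alpha subunit that in rodents increases after birth, was below each of them. Gabra2 had 7.91 times (5.76 to 11.1) and 6.56 times (5.65 to 7.65) its density, Gabra3 5.25 times (3.80 to 7.41) and 3.75 times (3.21 to 4.39), and Gabra5 2.83 times (1.97 to 4.11) and 1.905 times (1.59 to 2.28).

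The order of alpha2, alpha3 and alpha5 depended on which transcripts were counted and on the length that divided the count. The log2 ratio of Gabra2 over Gabra3 was 0.70 ± 0.15 with all transcripts of each gene, but -1.01 with protein-coding transcripts alone, -1.25 when counts were divided by the full length of the transcript with the longest coding sequence, and -0.06 with the highest transcript alone. The full lengths used were 5852 nucleotides for Gabra2 and 1790 for Gabra3. For Gabra2 over Gabra5 the value of 1.63 ± 0.21 became -0.23 both with protein-coding transcripts and with the highest transcript. For Gabra3 over Gabra5 the value of 0.93 ± 0.06 became 0.79 with protein-coding transcripts and -0.17 with the highest transcript. Gabra4 stayed the lowest of the 4 alpha genes in each of these settings, with mean log2 ratios of the other 3 over it from 0.75 to 2.96.

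**Figure D2:**
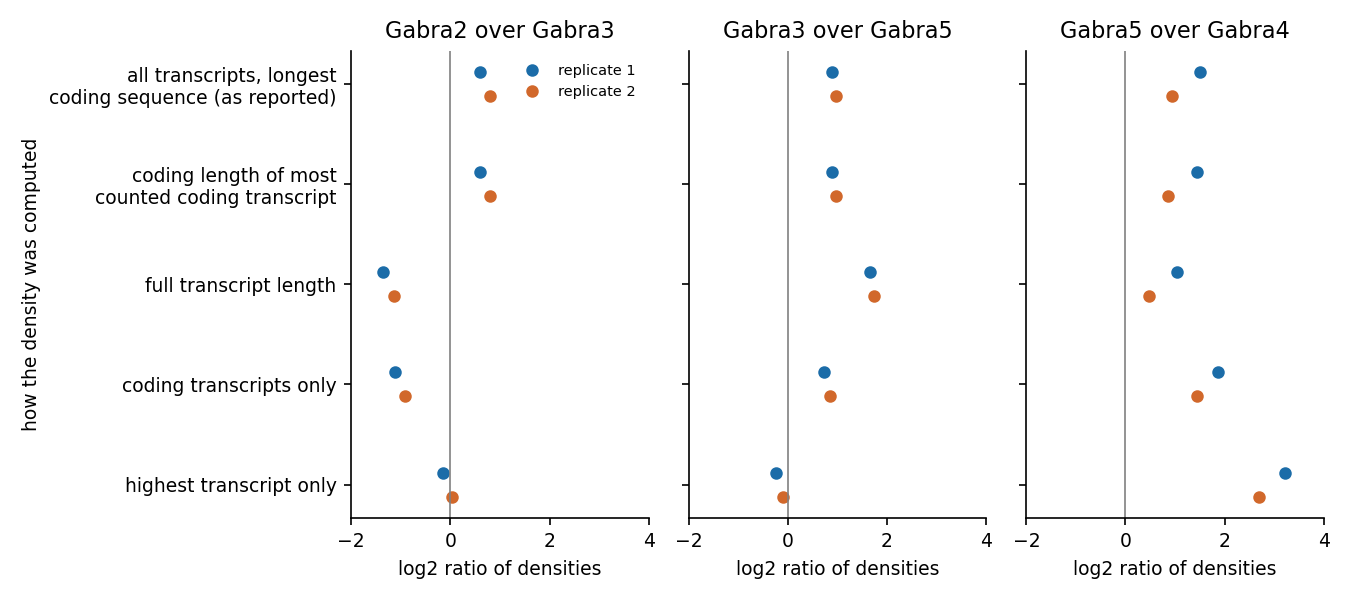
Log2 ratio of footprint density of Gabra2 over Gabra3, Gabra3 over Gabra5 and Gabra5 over Gabra4 in replicates 1 and 2, for 5 ways of computing density; the grey line marks equal density. Gabra2 over Gabra3 lies at 0.59 and 0.81 when all transcripts are summed and at -1.11 and -0.92 with protein-coding transcripts alone, while Gabra5 over Gabra4 lies above 0 throughout.

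How fragments shared by transcripts were counted is not given in the sources used here. In 51 genes, pairs of transcripts with an annotated coding sequence, of any class, had identical transcript, coding and untranslated lengths. They gave 91 comparisons with a summed count of at least 10. Dividing the squared difference of a pair by its sum gave 1.03 on average, where counting each fragment on both transcripts gives 0. Independent counts give 1, and so does placing each shared fragment at random on 1 transcript of the pair. The value cannot tell these apart. That such pairs share sequence was not tested. Transcript counts were summed per gene.

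The 7 genes had 26 annotated transcripts, of which 13 were protein coding, 3 targets of nonsense-mediated decay, 5 processed transcripts and 5 retained introns. Gabra2 was the member whose footprints were spread most widely. Its only protein-coding transcript, Gabra2-001 with a coding sequence of 1356 nucleotides, held 76 of 278 footprints in replicate 1 and 296 of 1071 in replicate 2, a share of 27.5% ± 0.212. Both of its transcripts annotated for nonsense-mediated decay together held 45.4% ± 0.623, those with retained introns 16.6% ± 1.15, and the processed transcript 10.5% ± 1.99. These transcripts can share exons with the coding one, and which part of their footprints lay in shared exons was not tested.

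The other members had a larger share of their footprints counted on coding transcripts. Their annotation differed as well: 1 of 6 transcripts was protein coding for Gabra2, 2 of 3 for Gabra3 and 1 of 1 for Gabra5. How far the shares follow the annotation was not tested. The protein-coding share was 90.3% ± 1.81 for Gabra3, 74.1% ± 5.26 for Gabra4, 74.9% ± 2.86 for Gabrb2 and 63.4% ± 0.0792 for Gabrg1. Gabra5 and Gabrb1 had protein-coding transcripts alone. Both Gabra3 coding transcripts held similar shares: Gabra3-001, with a coding sequence of 1479 nucleotides, took 43.7% ± 0.850, and Gabra3-002, with 1602 nucleotides, took 46.6% ± 0.961. Gabrb2-001 (1425 nucleotides) took 43.3% ± 2.08 of the gene's footprints and the longer Gabrb2-005 (1539 nucleotides) took 31.6% ± 0.778. Gabrg1-001 (1398 nucleotides) took 34.4% ± 2.46, close to the retained-intron transcript Gabrg1-002 at 29.0% ± 0.198. For Gabrb1, the full-length Gabrb1-001 took 68.2% ± 1.23 and a short form of 679 coding nucleotides 31.8% ± 1.23.

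**Figure D3:**
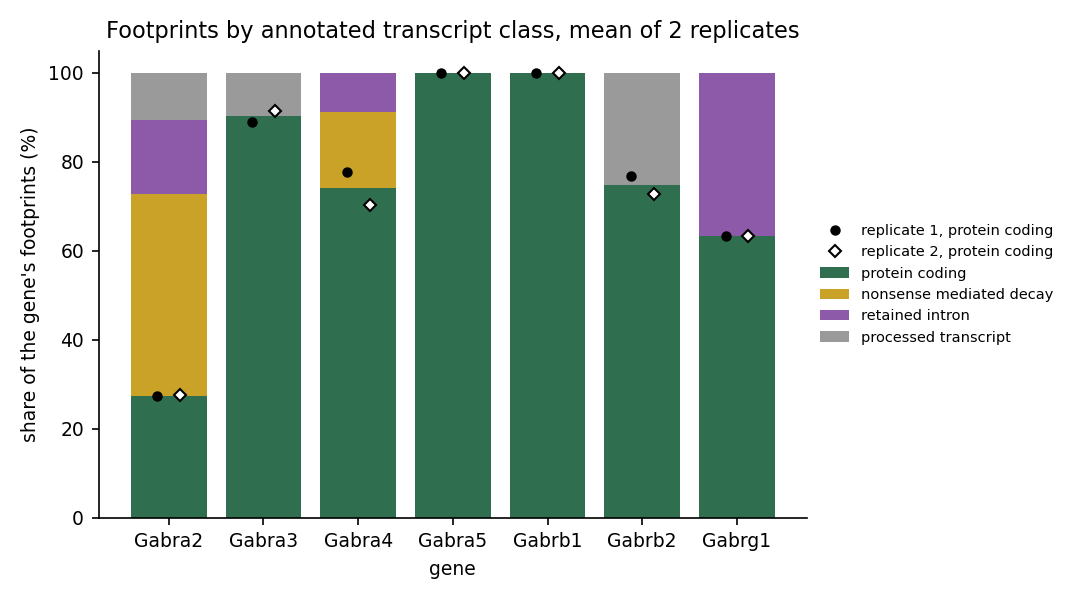
Share of each gene's footprints (%) on annotated transcript classes, as stacked bars of the mean of 2 replicates; symbols give the protein-coding share in each replicate. Gabra2 has 27.5% of its footprints counted on its 1 protein-coding transcript of 6 annotated, against 63.4% to 100% for the other 6 genes.

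Of the summed density of the 4 alpha genes, Gabra2 held 48.1% ± 2.199, Gabra3 29.6% ± 1.81, Gabra5 15.5% ± 1.58 and Gabra4 6.73% ± 1.19. Alpha2, alpha3 and alpha5 together made up 94.1% in replicate 1 and 92.4% in replicate 2. With protein-coding transcripts alone the share of these 3 was 91.8%, and that of Gabra2 was 21.9%, below the 44.2% of Gabra3 and the 25.7% of Gabra5.

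**Figure D4:**
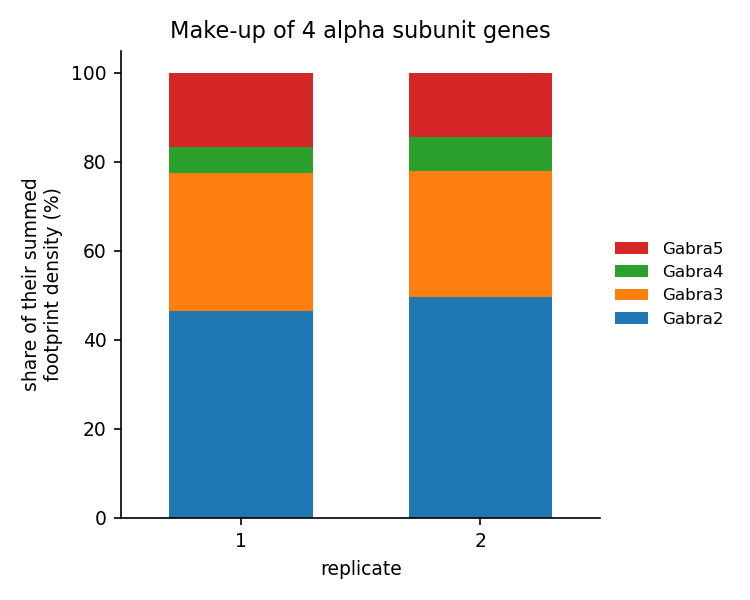
Share (%) of the summed footprint density of Gabra2, Gabra3, Gabra4 and Gabra5 held by each gene, as stacked bars for replicates 1 and 2; other alpha subunit genes are not in the sum. Gabra2 takes 46.6% and 49.7%, Gabra3 30.9% and 28.3%, Gabra5 16.6% and 14.4%, and Gabra4 5.88% and 7.57%.

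Most GABA-A subunit genes lie in clusters, and the RefSeq gene table of GRCm38.p6 gives their order. On chromosome 5 the order is Gabrg1, Gabra2, Gabra4 and Gabrb1, so 4 of the 7 genes are from 1 cluster. Densities in this cluster ran from 18.4 for Gabra4 to 130.0 for Gabra2. Neighbours were unequal with all transcripts summed and divided by coding length. Gabra2 had 2.76 times (2.19 to 3.49) and 2.68 times (2.39 to 3.01) the density of Gabrg1. Gabrb1 had 3.33 times (2.35 to 4.80) and 1.93 times (1.62 to 2.31) that of Gabra4. Per full transcript length the latter order turned, with Gabrb1 at 0.479 and 0.278 times Gabra4. Those full lengths were 13737 nucleotides for Gabrb1 and 2407 for Gabra4. With protein-coding transcripts alone Gabra2 and Gabrg1 were closer, at 30.0 and 41.5 against 25.3 and 35.5 in replicates 1 and 2. With the highest transcript Gabra2 was again at 30.0 and 41.5, and Gabrg1 at 13.0 and 20.3. The annotated ends of Gabra4 and Gabrb1 overlap. The use of strand in counting is not given in the sources used here, so footprints in this overlap are uncertain. On chromosome 7, Gabra5 had 2.57 times (1.77 to 3.81) and 1.78 times (1.48 to 2.14) the density of Gabrg3. Gabrb2 lies on chromosome 11, where Gabra6 was at or near 0. Gabra3 lies on the X chromosome between Gabre and Gabrq, both of which were much lower, at 1.43 ± 0.915 and 6.33 ± 0.536.

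The replicates were compared gene by gene on TMM-scaled libraries with an exact binomial test (two-sided), which covers counting noise between 2 libraries and no condition. Of the 7 genes, 1 was called at an adjusted p under 0.05, where 17.4% of 16427 tested genes were called (5.95% higher and 11.5% lower in replicate 2). This was Gabra2, with a log2 ratio of replicate 2 over replicate 1 of 0.32 and 0.00665 as its adjusted p in that exact test. Gabra4 had a log2 ratio of 0.58 (adjusted p 0.0581), Gabrg1 0.36 (0.0974), Gabra3 0.11 (0.628) and Gabra5 0.02 (0.984) in the same exact test. Gabrb1 and Gabrb2 were below 0, at -0.19 (0.458) and -0.12 (0.444). The median of the 7 was 0.11, beside 0.01 for all genes tested and -0.01 for the 5993 coding genes tested in the same range of density.

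The number of members called depended on scaling, on the transcripts counted and on the test. With library totals 3 of the 7 were called (Gabra2, Gabra4 and Gabrg1), where 19% of genes were called. With DESeq2 size factors Gabra2 and Gabra4 were called, where 17.4% of genes were, and the same 2 among genes whose mean count reached 50, where 26.8% were. With the highest transcript per gene (9.41% of genes called), or with edgeR's exact test and a common dispersion (0.067%), none was. An unadjusted p under 0.05 was then found for 2 and 0 of the 7. The common dispersion was 1 value for all genes tested, estimated from the same 2 libraries, so it takes in their general difference. This edgeR setting therefore leaves few calls possible, and 719 of the 16427 genes had an unadjusted p under 0.05. In it Gabra2 did not differ beyond the spread of genes in general between these libraries, which the exact binomial test leaves out. With 2 libraries of 1 group, a spread for Gabra2 alone cannot be estimated.

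**Figure D5:**
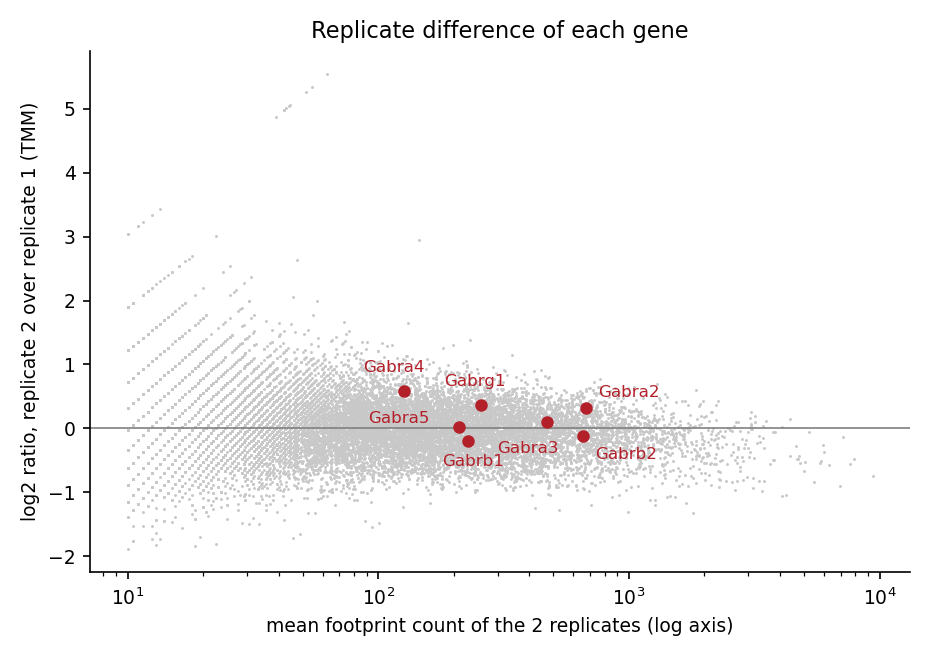
Log2 ratio of replicate 2 over replicate 1 after TMM scaling against the mean footprint count (log axis) for the 16427 genes tested, in grey, with the 7 genes in red. The 7 lie between -0.19 (Gabrb1) and 0.58 (Gabra4), inside the cloud of all genes.

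The counts of called genes in the lists that follow stand beside the 17.4% of all genes that were called, 5.95% higher and 11.5% lower in replicate 2. The share called was larger, at 26.8%, among genes whose mean count reached 50. Of 4 genes of synthesis and breakdown, 2 were called, both lower: Gad2, a synthesis enzyme, with a log2 ratio of -0.48 and Aldh5a1, which acts late in GABA breakdown, with -0.54. The highest density of this list was that of Abat, the GABA transaminase, at 165 ± 10.05. Of 4 transporter genes, 2 were called, both lower: Slc32a1, which fills vesicles, at -0.73, and the uptake carrier Slc6a11 at -0.64. Slc6a11 had the highest density of this list, at 185 ± 46.2, and Slc6a12 the lowest, at 3.06 ± 1.51. Of 6 neuronal markers 4 were called, all lower in replicate 2 (Snap25 at -0.55, Stmn2 at -0.81, Syt1 at -0.20 and Tubb3 at -0.99), while none of 4 astrocyte markers was. Of 3 oligodendrocyte lineage markers, Mbp (0.70) was higher and Olig1 (-0.84) was lower. Each of the microglial and endothelial lists of 3 had 1 called gene, C1qa (-0.64) and Cldn5 (-0.91), both lower, and the muscle gene Acta1 was lower at -0.70. The part of these shifts in the Gabra2 difference was not tested.

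Proteins that hold GABA-A receptors at inhibitory synapses were described from a list of 14. Gephyrin (Gphn), the scaffold that anchors alpha2-containing receptors, had a density of 51.2 ± 9.05 and was not called, at a log2 ratio of 0.24. Radixin (Rdx), which anchors alpha5 to actin, had 87.2 ± 2.21. Called genes were Dmd, higher in replicate 2 at 0.60, and Nlgn2 and Lhfpl4, lower at -0.52 and -0.60; Lhfpl4 is an auxiliary protein of GABA-A receptors. Dag1, encoding dystroglycan, was the highest of the list at 106 ± 6.01, and Dmd the lowest at 5.49 ± 1.93.

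In the list of 14 genes for assembly and traffic of the receptor, 9 were called, 1 higher (Kif21a, at 0.32) and 8 lower, where 17.4% of all genes were called and 11.5% were lower. All 14 had a mean count above 50, and 26.8% of genes that reached this count were called. Gabarap, a receptor-associated trafficking protein, had the highest density, at 461 ± 16.7, and was not called. Its relatives Gabarapl1 and Gabarapl2 were lower in replicate 2, at -0.72 and -0.45, as were Maged1 (-0.45), Kif5a (-0.52), Clptm1 (-0.44), Hap1 (-0.38), Nsf (-0.18) and Ap2m1 (-0.17). The lowest density was that of Trak1, at 16.7 ± 1.16. Of 5 genes of the metabotropic GABA-B receptor, Gabbr1 (-0.29), Gabbr2 (-0.50) and Kctd12 (-0.84) were lower and none was higher. Gabbr1 had the highest density of that list, at 224 ± 18.0, and Kctd16 the lowest, at 15.2 ± 0.874.

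The chloride gradient helps to set the direction of current through GABA-A receptors. Slc12a5, the neuronal chloride exporter, had 917 and 2437 footprints and a density of 140 ± 5.81. Slc12a2, the importer, had 107 and 332 footprints and a density of 16.6 ± 1.13, or 0.110 times (0.0893 to 0.135) and 0.129 times (0.114 to 0.144) that of Slc12a5. The exporter was thus the higher in both libraries with all transcripts summed, of which Slc12a5 had 9 and Slc12a2 had 1. Other choices of transcript or length were not computed for this pair. Slc12a5 was called lower in replicate 2 (log2 ratio -0.21), and was the 1 gene called among 5 tested in its list of 6. The lowest density of that list was that of the carbonic anhydrase gene Car7, at 2.68 ± 0.937.

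Other receptor families gave the following totals. The 7 GABA-A genes described here summed to a density of 441 in replicate 1 and 522 in replicate 2, the 4 AMPA receptor genes to 278 and 374, the 7 NMDA receptor genes to 303 and 333, and the 5 glycine receptor genes to 120.5 and 184. These sums use all transcripts and coding length, and the 7 are a part of the GABA-A subunit genes. Their mean sum of 481 was 327 with protein-coding transcripts and 223 with the highest transcript. The other families were not summed in those ways, so no order of families can be drawn. Glra2, the glycine receptor subunit of immature neurons, had 6.21 times (3.51 to 11.8) and 2.95 times (2.32 to 3.77) the density of Glra1. Of the 4 glycine receptor genes tested, Glra1 (log2 ratio 1.08) and Glrb (0.58) were called higher in replicate 2, as were Gria2 (0.42) and Gria3 (0.49) of the 4 AMPA receptor genes. Of 6 NMDA receptor genes tested, Grin1 was higher (0.15), and Grin2d (-0.68) and Grin3a (-0.35) were lower. Gabra2 was thus among several receptor subunit genes called higher in replicate 2, where 5.95% of all genes were. Among the 5993 coding genes tested in the density range of the 7, 561 were called higher, a larger share than the 978 of all 16427 genes tested. The highest and lowest densities were those of Glrb (94.4 ± 31.9) and Glra4 (no footprint) in the glycine list. They were those of Gria2 (149 ± 39.5) and Gria4 (44.6 ± 7.50) in the AMPA list, and of Grin1 (175 ± 23.6) and Grin3b (0.209 ± 0.207) in the NMDA list.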

How the data were processed

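The authors deposited whole-number counts of ribosome footprints per transcript, with no normalization, and annotated lengths. Per the submitters' processing notes, the build was GRCm38.p4 and the tools included Trimmomatic 0.36, Bowtie2 2.2.6 and SAMtools; the counting rule, annotation release and handling of fragments with several matches are not given in the sources used here. Counts were summed per gene and divided by the longest coding length and the library total. Poisson and Clopper-Pearson intervals used scipy 1.17.1. Replicates were compared by an exact binomial test against TMM effective library sizes (edgeR 4.0.16; factors 0.957 and 1.04), with Benjamini-Hochberg adjustment over the 16427 genes whose mean count reached 10, and a prior of 0.5 CPM in log2 ratios. With 1 group there is no contrast, so no quasi-likelihood test was run. The script was tested on simulated data. Alternatives used DESeq2 1.42.0 size factors, other lengths, transcripts, filters and edgeR's exact test. Named genes were the 7, the other subunits and, of each list, called genes, the highest and lowest density, and genes a sentence turned on; marker lists of cell types were named by called genes alone. The members and lists were chosen with earlier results of these data known. Near-identical genes can share footprints. Some planned comparisons and subunit genes are not reported here. Protein and coding sequences were not used here.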

Additional observations from a re-analysis of the deposited data

How the results depend on the processing

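The summed density of the 7 genes, 481 as reported, was 274 per full transcript length, 327 with protein-coding transcripts only and 223 with the highest transcript only. The ratios between alpha genes were chosen after seeing the data. In the same order, the log2 ratio of Gabra2 over Gabra3 (0.70) was -1.25, -1.01 and -0.060, of Gabra2 over Gabra5 (1.63) 0.46, -0.23 and -0.23, of Gabra3 over Gabra5 (0.93) 1.70, 0.79 and -0.17, and of Gabra5 over Gabra4 (1.21) 0.75, 1.65 and 2.96. Gabra2 over Gabra4 (2.85) was 1.21 per full length and 1.42 with protein-coding transcripts; Gabra3 over Gabra4 (2.15) was 2.79 with the highest transcript. The share of alpha2, alpha3 and alpha5 in the 4 alpha genes (93.3%) was 90.4% per full length and 91.8% with protein-coding transcripts. Protein-coding transcripts alone and the highest transcript alone leave out footprints on other transcripts by construction; the cause of each change was not tested. Members called between replicates (1) numbered 3 with library totals, 2 with DESeq2 size factors, 2 at a mean count of at least 50, 0 with the highest transcript and 0 with edgeR's exact test, where all genes called numbered 11 in place of 2861. The dispersion of edgeR's exact test came from the same 2 libraries that it compared, which leaves few calls possible. The highest transcript gave 1444 calls. With library totals the log2 ratio of Gabrb2 between replicates turned from -0.12 to 0.0075. Leaving out either replicate gives the other replicate's value. Depth limits Gabra4 most, with 45 footprints in replicate 1. No paired analysis was possible because the samples form 1 group.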
